A study of Mus musculus with 16 samples.

Results

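The nuclear-encoded genes of the mitochondrial respiratory chain and ATP synthase were followed in mouse aorta under 2 progestins, medroxyprogesterone acetate (MPA) and norethisterone acetate (NET-A). The genes were chosen by their symbols in the array files: those beginning with Ndufa, Ndufb, Ndufc, Ndufs, Ndufv, Uqcr or Atp5, the genes Sdha, Sdhb, Sdhc and Sdhd, and Cox4 to Cox8 followed by letters or digits. Of 28095 genes on the array, 88 met this rule, and 81 of them encode subunits: 37 of complex I, 4 of complex II, 7 of complex III, 18 of complex IV and 15 of complex V. The other 7 are not counted as subunits. Ndufaf1, Ndufaf2, Ndufaf3 and Ndufaf4 encode assembly factors of complex I, Atp5s and Atp5sl are now named Dmac2l and Dmac2, and Cox4nb, now Emc8, belongs to a complex of the endoplasmic reticulum. The symbol put Cox4nb with complex IV and Atp5s and Atp5sl with complex V in the values below.

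All mice were ovariectomized ApoE-deficient females on the C57BL/6 background, which are prone to atherosclerosis, and all were fed a high-fat Western-type diet. The ovaries had been removed when the mice were 4 to 5 weeks old. A pellet under the skin, made to release for 90 days, then delivered MPA, NET-A or placebo, and the aorta was removed after 78 to 90 days. The groups were MPA, its placebo, NET-A and its placebo, with 4 samples each on 1 array per sample. No dose is stated, and nothing in the labels says that the samples of a group came from separate animals, so the p-values measure only the spread between these samples, which may be technical. The MPA experiment filled slides 1 and 2, each with 2 arrays of either group. In the NET-A experiment, slides 3 and 4 each held 1 NET-A and 1 placebo array, and slide 5 held 2 of each.

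Complexes I to IV pass electrons from NADH and succinate to oxygen, all but complex II pump protons out of the mitochondrial matrix, and complex V uses the returning protons to make ATP. A few complex IV subunits exist in pairs, with one form in heart, skeletal muscle and brown fat and the other in most tissues. Brown adipocytes are rich in mitochondria, express Ucp1, which lets protons return without ATP synthesis, and are found in the fat around the thoracic aorta.

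In the MPA experiment 46.3% to 60.6% of spots were well above background, and in the NET-A experiment 62.3% to 78.5%. MPA replicate 2 stood apart, with a 75th percentile intensity of 164 against 512 to 918 on the other arrays of its experiment, so some values are also given without it. The smooth muscle genes Acta2, Cnn1 and Tagln lay at log2 levels of 7.74 to 9.84 on all arrays where they were measured, and Ucp1 at 5.38 to 9.05. Markers of 2 other tissues were uneven. The skeletal muscle list (mean log2 deviation of its kept genes from the 8 arrays of the experiment) stood at 3.85 on MPA placebo replicate 3 against -1.02 to 0.94 on the other 7 arrays, and the cardiac list at 2.52 on MPA placebo replicate 4 and 2.03 on NET-A replicate 2 against at most 0.13 on all other arrays. Of the 13 skeletal and 7 cardiac genes listed, 6 and 6 were kept in the MPA experiment and 12 and 6 in the NET-A experiment. Immune cell markers shifted too: the 6 macrophage genes kept had medians of -0.50 with MPA and -0.43 with NET-A, 0 of 6 above 0 in both, and the neutrophil genes kept lay above 0 in 5 of 5 and 6 of 6 cases, with medians of 2.56 and 1.06. The neutrophil list held 7 genes. In the MPA experiment Ngp and Camp were not kept, and Stfa2l1 and Ltf were well above background on only 5 of 8 arrays, so these counts cover only the genes that passed. A dim gene can pass through the group where it is higher, so its direction is not independent of the filter. Stfa2l1 lay at -5.78 to -2.52 in the MPA placebo and at -2.47 to -0.54 with MPA. The erythroid genes lay above 0 in 5 of 5 and 4 of 5 cases, with medians of 0.62 and 1.22. None of these was called, and their part in the values below was not tested. In bulk tissue, fewer cells of a type and less RNA per cell cannot be told apart.

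Levels are log2 of the background-subtracted signal relative to the 75th percentile of the array, and differences between them are log2 fold changes. Of the 88 genes, 84 were well above background on every array where they were measured. Cox7b2, a testis form, was above background on no array, Cox8c, another testis form, on MPA placebo replicate 3 alone, and Cox4i2, the form induced by low oxygen, on 1 placebo array and no MPA array of the MPA experiment. Genes had to be well above background on 4 of 8 arrays to be compared, which left 85 genes in the MPA experiment and 86 in the NET-A experiment.

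MPA changed no gene of the respiratory chain past the threshold. With limma and Benjamini-Hochberg adjustment, 0 of 85 genes were called, where 0% of 15133 genes tested were called, and the smallest adjusted p among the 85 was 0.818. At an unadjusted p under 0.05 the counts were 0 of 85 and 939 of 15133 (6.2%). The median log2 fold change was 0.0065, with 46 genes above 0 (54.1%, against 49.5% of all genes tested) and 39 below, and the median of all genes was -0.0025. Without MPA replicate 2 the median was 0.09, against 0.03 for all genes, with 61 genes above 0 (71.8%, against 54.5% of all genes). In that fit 3.53% of the 85 and 6% of all genes had an unadjusted p under 0.05, and 0 of the 85 were called. Scaling each array to its median shifted all genes alike, with 28.2% of the 85 and 37.6% of all genes above 0, and the median of the 85 less that of all genes was 0.0075, against 0.009 before. That distance was 0.10 with quantile normalization (78.8% of the 85 above 0, 53% of all genes) and -0.36 with normexp background correction (4.71% against 50.4%). With normexp 8.24% of the 85 and 28.9% of all genes had an unadjusted p under 0.05, and 0 of the 85 were called. For 75 of 85 genes (88.2%) the 95% confidence interval of the change lay within a 2-fold change either way, as it did for 77.9% of all genes tested. The median by complex was 0.02 for complex I, -9e-04 for complex II, -0.04 for complex III, 0.04 for complex IV and -0.06 for complex V.

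NET-A changed no gene of the respiratory chain past the threshold either. Of 86 genes, 0 were called by limma with Benjamini-Hochberg adjustment, where 0% of 20909 genes tested were called, and the smallest adjusted p among the 86 was 0.803. At an unadjusted p under 0.05 the counts were 0 of 86 and 1294 of 20909 (6.19%). The median log2 fold change was -0.06 against -0.03 for all genes, with 18 genes above 0 and 68 below (79.1%, against 55.1% of all genes tested), but with scaling to the array median, which shifts all genes alike, 60.5% of the 86 and 60.9% of all genes lay above 0, and with normexp 76.7% and 36%. The median of the 86 less that of all genes was -0.04 as reported, with median scaling and with quantile normalization, and 0.21 with normexp. For 78 of 86 genes (90.7%) the 95% confidence interval lay within a 2-fold change either way, as it did for 72.4% of all genes. By complex the median was -0.05 for complex I, 0.0026 for complex II, -0.18 for complex III, -0.12 for complex IV and -0.04 for complex V. Complex III had all 7 of its genes below 0, and its median was -0.10 with median scaling and 0.0066 with normexp. The median of all 86 genes was -0.28 without NET-A replicate 2, 0.05 without replicate 1 and 0.06 without replicate 3.

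**Figure D1:**
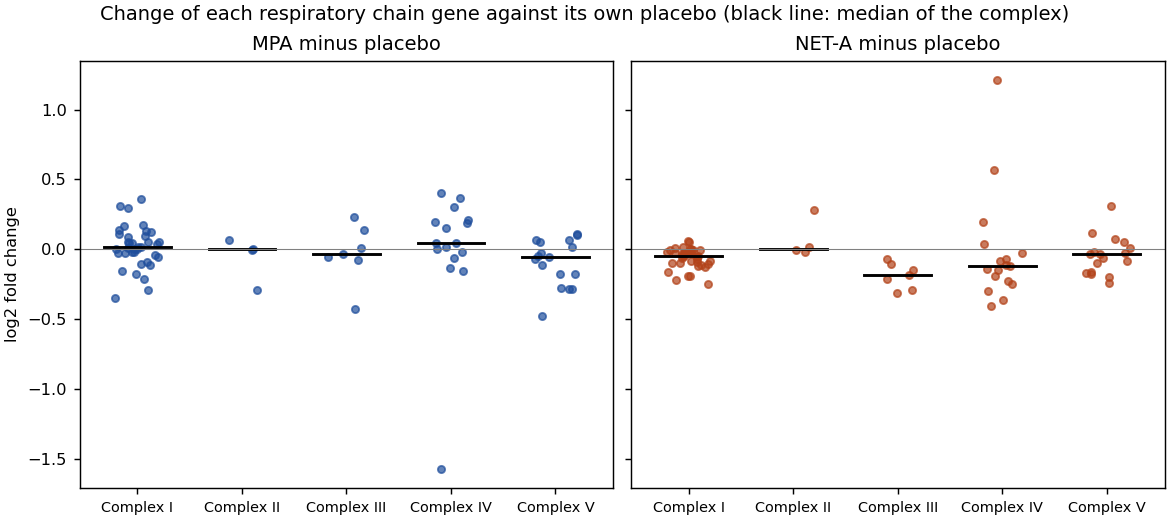
Log2 fold change of each respiratory chain gene (1 point per gene) by complex, MPA minus its placebo on the left and NET-A minus its placebo on the right; black lines are medians. In both panels the medians of the 5 complexes lie between -0.18 and 0.04, and Cox6a2 in complex IV lies farthest from 0, at -1.57 with MPA and 1.21 with NET-A.

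The arrays of the NET-A group differed from each other far more than those of its placebo. A score for each complex, the mean over its genes of the log2 deviation from the 8 arrays of the experiment, shows this. For complex I, with its 37 NADH dehydrogenase genes, the score was -0.42, 0.62, -0.43 and 0.10 on NET-A replicates 1 to 4 and 0.13, -0.12, 0.02 and 0.10 on the placebo arrays. Replicate 2 lay above every placebo array, replicates 1 and 3 lay below every placebo array, and replicate 4 lay among them. The same held for complexes II, III, IV and V: replicate 2 stood at 0.88, 0.65, 0.61 and 0.46, above all placebo arrays, replicate 1 at -0.49, -0.51, -0.39 and -0.27, and replicate 3 at -0.27, -0.51, -0.35 and -0.34. These last 2 arrays lay below all placebo arrays in each complex. The SD over arrays was larger in the NET-A group than in its placebo for 82 of 86 genes (95.3%), against 56.6% of all genes tested, with a median SD of 0.506 against 0.157 (all genes, 0.287 against 0.256). It was larger for 37 of 37 genes of complex I, 4 of 4 of complex II, 7 of 7 of complex III, 15 of 17 of complex IV and 15 of 17 of complex V. The 4 genes in which it was not larger were Cox6a1, Atp5j, Cox4nb and Atp5s. The count was 61 of 86 with normexp, 81 to 84 with the other scalings, the mean of all probes or the series table, and 76 to 84 with 1 array left out (76 without NET-A replicate 2). In the MPA experiment the SD was larger under the progestin for 33 of 85 genes (38.8%, against 49.1% of all genes), for 19 without MPA replicate 2 and for 53 with normexp. This pattern was noted in the values, and no test was made of it.

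**Figure D2:**
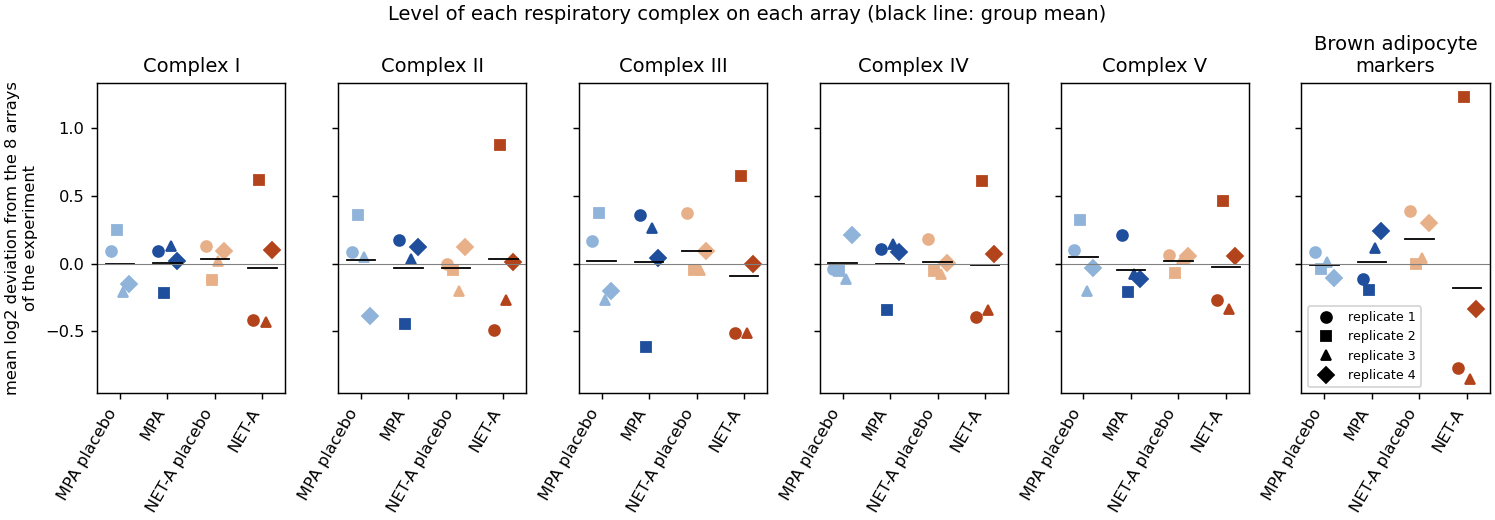
Score of each complex on each array (mean log2 deviation of its genes from the 8 arrays of the experiment; marker shape gives the replicate number, black line the group mean), with the brown adipocyte marker list in the last panel. In the NET-A group replicate 2 is high and replicates 1 and 3 are low in all 6 panels, while its placebo arrays lie between -0.20 and 0.39.

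**Figure D3:**
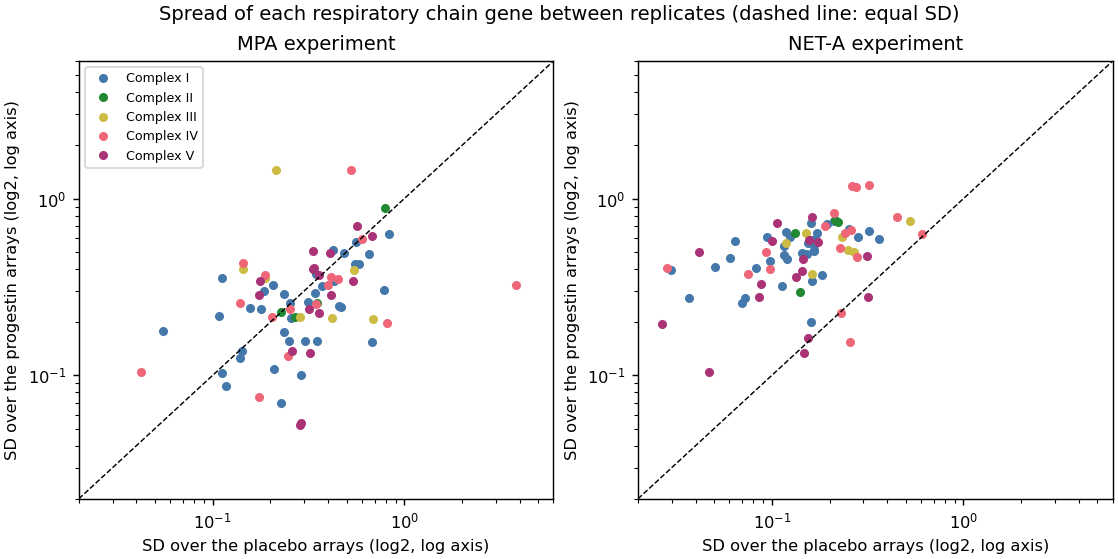
SD over the replicates of each gene in the progestin group (vertical) against the placebo group (horizontal), both on log axes, for the 5 complexes. In the NET-A experiment nearly all points lie above the dashed line of equal SD, 82 of 86 genes when the 4 assembly factors, which are not drawn, are included.

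The order of the arrays was shared across genes. NET-A replicate 2 was the highest of the 8 arrays for 75 of 86 genes (87.2%, against 16.3% of all genes), and replicates 1 and 3 were the lowest for 37 and 39 genes (43% and 45.3%, against 12.4% and 15.8%). The order replicate 2, then replicate 4, then replicates 1 and 3 was found in 76 of 86 genes (88.4%) and in 15.4% of the 20877 genes measured on all 4 NET-A arrays. The 75th percentile intensity of the arrays had this order too, at 420, 799, 510 and 615 on NET-A replicates 1 to 4. On placebo replicates 1 to 4 it was 316, 312, 615 and 617. The part of array brightness in the order was not tested. The range over the 4 NET-A arrays exceeded 1 on the log2 scale for 56 of 86 genes (65.1%) against 29.9% of all genes, with a median of 1.13 against 0.641. Most of the brown adipocyte markers moved alongside. The score of this list was -0.77, 1.23, -0.86 and -0.34 on NET-A replicates 1 to 4 against -0.004 to 0.39 on placebo, so that replicate 4 too lay below every placebo array. Of its 8 kept genes 5 had the same order, and Elovl3, Dio2 and Prdm16 did not. Prdm16 ran the other way, at 2.28, 1.51, 2.29 and 1.89 on NET-A replicates 1 to 4 against 1.88, 1.85, 2.14 and 1.94 on placebo. The common adipocyte score was -0.74, 1.12, 0.21 and -0.10 and the endothelial score -0.52, 0.71, 0.03 and 0.07, so that in both replicate 2 was above and replicate 1 below every placebo array while replicate 3 was not low, and 2 of 7 and 1 of 6 of their genes had the order. Ucp1 itself lay at 5.38, 8.20, 5.51 and 6.17 on NET-A replicates 1 to 4 and at 7.07, 6.65, 6.84 and 7.05 on placebo. The skeletal muscle score was 0.93, 0.75, 0.89 and -0.56 on NET-A replicates 1 to 4 and -0.66 to -0.31 on placebo. The part of adipocyte, endothelial, skeletal muscle and cardiac genes in the spread was not tested.

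Taken slide by slide, the same arrays divided the same way. Within slide 3, which held NET-A replicate 1, 79 of 86 genes lay lower with NET-A (median -0.56), and within slide 4, which held NET-A replicate 3, 77 lay lower (median -0.31). Within slide 5, which held NET-A replicates 2 and 4, 85 of 86 lay higher (median 0.28). There the mean log2 deviation of the 86 genes was 0.59 on replicate 2 and 0.08 on replicate 4, against -0.01 and 0.07 on the placebo arrays. Within slides 3, 4 and 5, 8.14%, 10.5% and 98.8% of the 86 genes lay above 0, against 53.7%, 47.4% and 41.6% of all genes tested. Complex III was lower by a median of -0.85 and -0.49 on slides 3 and 4 and higher by 0.31 on slide 5. The MPA experiment also differed by slide: 64 of 85 genes lay lower with MPA within slide 1 (median -0.16) and 72 lay higher within slide 2 (median 0.22). Within slides 1 and 2, 24.7% and 84.7% of the 85 genes lay above 0, against 46.3% and 55.9% of all genes. Slides 3 and 4 gave 1 array per group and hence no test, and within slides 1, 2 and 5 no gene of the respiratory chain was called by limma, with smallest adjusted p-values of 0.886, 0.479 and 0.879 (at an unadjusted p under 0.05, 2.35%, 8.24% and 0% of these genes and 4.4%, 7.86% and 5.68% of all genes). The part of the slide in these values was not tested beyond that.

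**Figure D4:**
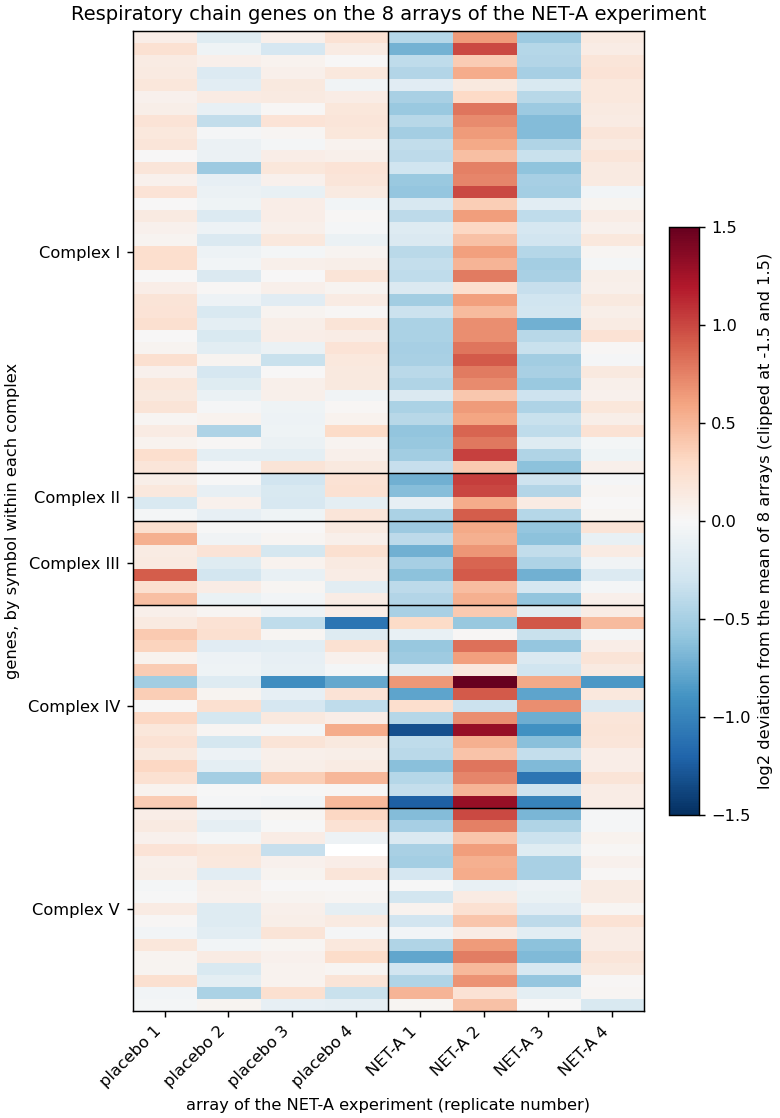
Log2 deviation of each gene from its mean over the 8 arrays of the NET-A experiment (rows, grouped by complex; columns, arrays; the colour scale is clipped at -1.5 and 1.5, and the white cell is a value dropped as an outlier). Most rows are red on NET-A replicate 2, where 75 of 86 genes (the 4 assembly factors, not drawn, included) had their highest value, and blue on NET-A replicates 1 and 3; complex IV includes Cox4nb, and complex V includes Atp5s and Atp5sl.

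The widest ranges were in the muscle and brown fat forms of complex IV subunits. Cox8b, the muscle form of subunit 8, and Cox7a1, the muscle form of subunit 7a, are shown beside their general forms Cox8a and Cox7a2 by the 250 bases before the start of each gene (RefSeq, build GRCm38.p6, read 5′ to 3′ on the strand of the gene), because the muscle forms ranged most widely over the NET-A arrays. Capitals mark matches to any of the motifs searched: Cox8b at chr7:140900447-140900696 on the minus strand, Cox8a at chr19:7217617-7217866 on the minus strand, Cox7a1 at chr7:30183921-30184170 on the plus strand and Cox7a2 at chr9:79759854-79760103 on the minus strand.
Cox8b: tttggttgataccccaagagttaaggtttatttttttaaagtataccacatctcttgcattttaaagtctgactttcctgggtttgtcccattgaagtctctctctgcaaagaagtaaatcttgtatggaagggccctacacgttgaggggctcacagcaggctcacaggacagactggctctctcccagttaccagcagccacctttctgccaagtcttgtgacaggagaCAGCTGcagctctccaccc
Cox8a: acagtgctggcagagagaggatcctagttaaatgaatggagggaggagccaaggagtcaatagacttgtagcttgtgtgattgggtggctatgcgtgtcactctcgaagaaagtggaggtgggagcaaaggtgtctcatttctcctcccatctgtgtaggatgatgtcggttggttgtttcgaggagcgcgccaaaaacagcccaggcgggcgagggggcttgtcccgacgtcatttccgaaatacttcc
Cox7a1: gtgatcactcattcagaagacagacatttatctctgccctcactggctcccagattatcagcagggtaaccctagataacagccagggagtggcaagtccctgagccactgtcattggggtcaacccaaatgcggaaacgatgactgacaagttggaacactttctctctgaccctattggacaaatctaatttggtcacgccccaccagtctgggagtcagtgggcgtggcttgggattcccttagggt
Cox7a2: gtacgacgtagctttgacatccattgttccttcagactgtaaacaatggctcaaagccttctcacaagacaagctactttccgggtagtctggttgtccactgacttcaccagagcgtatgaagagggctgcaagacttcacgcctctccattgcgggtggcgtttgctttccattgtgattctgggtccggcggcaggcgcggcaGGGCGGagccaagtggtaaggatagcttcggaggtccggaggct

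The Cox8b window held an E-box (CAGCTG) and the Cox7a2 window a GC box (GGGCGG), and those of Cox8a and Cox7a1 held no match to the letters searched. Windows were found for 71 of the 88 genes by symbol and for 27025 genes in all, and motifs were searched in the 250 bases before the start. Of the 27025 windows, 19876 lay at the outer start of their gene, and the others at the listed start nearest to it. On either strand, each motif being counted on its own even where it overlapped another, the NRF1 palindrome (GCGCA and GCGC with 1 base between them) was in 15.5% of the 71 windows and 3.87% of all, the ETS site CCGGAAG in 16.9% and 7.07%, the estrogen-related receptor half-site AAGGTCA in 4.23% and 4.04%, the YY1 site AAGATGG in 0% and 4.51%, the GC box in 39.4% and 33% and the E-box in 7.04% and 12.7%. NRF1, GABPA of the ETS family, YY1 and the estrogen-related receptors are known regulators of respiratory chain genes.

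Cox8b (probe at chromosome 7, 148084852 to 148084911, mm9) lay at 7.64, 7.55, 7.32 and 7.39 in the MPA placebo and at 7.89, 7.14, 8.06 and 8.03 with MPA. It lay at 6.48, 6.08, 6.05 and 6.59 in the NET-A placebo and at 4.87, 7.40, 5.09 and 6.21 with NET-A. The groups overlapped in both experiments, MPA replicate 2 being the lowest array of its own, and NET-A replicates 1 and 3 lay below every placebo array. The changes were 0.31 ± 0.22 (SE, n = 4 and 4, limma adjusted p = 0.864) with MPA and -0.41 ± 0.52 (adjusted p = 0.984) with NET-A. Without MPA replicate 2 the MPA value was 0.52 and with normexp -0.08, and without NET-A replicate 2 the NET-A value was -0.91 (adjusted p = 0.58). Within slides 3, 4 and 5 it was -1.61, -0.99 and 0.49.

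Cox8a, the general form of the same subunit (probe at chromosome 19, 7289727 to 7289786, mm9), was at 6.00, 6.87, 6.06 and 6.47 with NET-A and at 6.42, 6.36, 6.36 and 6.39 in its placebo. Its range over the NET-A arrays was 0.87, against 2.53 for Cox8b, with the arrays in the same order. With MPA it was at 6.74, 6.70, 6.64 and 6.82 against 6.83, 7.14, 6.78 and 6.77 in placebo, a difference of -0.16 ± 0.14 (limma adjusted p = 0.887), and -0.61 with normexp (adjusted p = 0.0926, the smallest of any named gene and setting with MPA). The groups overlapped in both experiments.

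Cox7a1 (probe at chromosome 7, 30970337 to 30970948, mm9) was at 3.93, 6.56, 4.35 and 5.45 with NET-A and at 5.43, 5.28, 5.23 and 5.81 in its placebo. Replicate 2 was again above and replicates 1 and 3 below every placebo array, and the difference in means was -0.36 ± 0.53 (limma adjusted p = 0.991), or -0.86 without replicate 2. In the MPA experiment the 8 arrays lay between 5.44 and 6.03 and the difference was 0.15 ± 0.17 (adjusted p = 0.905), and -0.21 with normexp. Cox7a2, the general form, ranged over 1.17 on the NET-A arrays against 2.63 for Cox7a1.

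Cox6a2, the muscle form of subunit 6a (probe at chromosome 7, 135349160 to 135349219, mm9), had another pattern. It lay at -2.08, -4.71, 2.04 and 3.67 on the MPA placebo arrays and at -2.14, -2.08, -1.46 and -1.69 with MPA. The value of -4.71 on placebo replicate 2 was not well above background and gives only a bound. The 2 high placebo arrays were replicate 3, which had the high skeletal muscle score, and replicate 4, which had the high cardiac score. The difference was -1.57 ± 1.57 (limma adjusted p = 0.899), and -0.26 without MPA placebo replicate 4, -0.80 without replicate 3 and -3.05 without replicate 2. Within slides 1 and 2 it was 1.29 and -4.43. With NET-A it lay at -0.56, 0.86, -0.65 and -2.07 against -1.73, -1.40, -2.14 and -1.97 in placebo. NET-A replicates 1 to 3, the 3 arrays with a skeletal muscle score above 0, lay above every placebo array and replicate 4 lay among them, a difference of 1.21 ± 0.54 (unadjusted p = 0.0543, limma adjusted p = 0.803), or 0.72 without NET-A replicate 2. Replicate 2, the highest of these arrays, also had the high cardiac score of 2.03. The part of muscle RNA in these values was not tested. Cox6a1, the general form, changed by 0.36 ± 0.36 with MPA and -0.08 ± 0.17 with NET-A (limma adjusted p = 0.899 and 0.998).

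**Figure D5:**
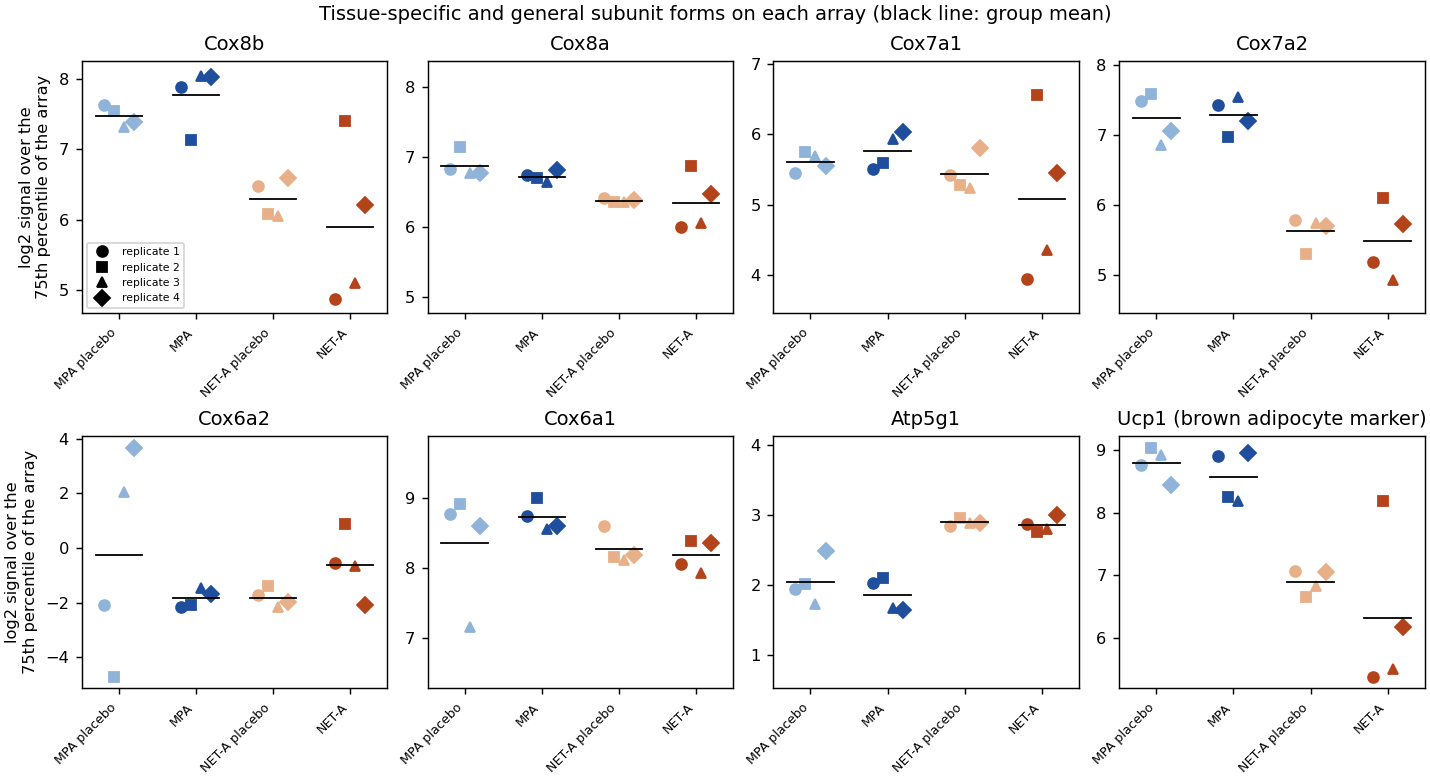
Log2 level on each array of 3 muscle and brown fat forms (Cox8b, Cox7a1, Cox6a2), their general forms (Cox8a, Cox7a2, Cox6a1), Atp5g1 and Ucp1, by group; marker shape gives the replicate number, black lines are group means, and the vertical scales differ between panels. Cox8b, Cox7a1 and Ucp1 share the high NET-A replicate 2 and low replicates 1 and 3, whereas Atp5g1 stays within 2.76 and 3.001 on the 4 NET-A arrays.

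Among the remaining complex IV genes, Cox4i1, the general form of subunit 4, changed by 0.19 ± 0.18 with MPA and -0.07 ± 0.19 with NET-A, and Cox4i2 by 0.57 ± 0.39 with NET-A. Cox6b1, which joins the monomers of complex IV, lay at 2.27, 3.98, 2.27 and 3.22 with NET-A and at 3.43, 3.10, 2.94 and 3.26 in placebo, so that replicate 2 was above and replicates 1 and 3 below every placebo array. Its testis form Cox6b2 changed by 0.40 ± 0.24 with MPA and 0.20 ± 0.25 with NET-A. Cox7a2l, which links complexes III and IV into supercomplexes, changed by -0.0016 ± 0.21 and -0.12 ± 0.20, and Cox7b by 0.04 ± 0.26 and -0.19 ± 0.32. Cox5b was the one gene of the 85 whose MPA and placebo values did not overlap, with 6.19, 6.36 and 6.38 on MPA replicates 2 to 4 against 6.16, 6.09 and 6.09 on placebo replicates 1, 3 and 4, the other 2 values having been dropped as outliers. Among all genes 3.83% had groups that did not overlap in the MPA experiment, 2.56% with MPA higher, and 3.91% in the NET-A experiment, where no gene of the respiratory chain did. The Cox5b difference was 0.19 ± 0.16 (n = 3 and 3, limma adjusted p = 0.886), and -0.12 with normexp. None of these complex IV genes had a limma adjusted p under 0.85 in either comparison.

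Complex I carried the gene with the smallest p under MPA. Ndufa6, an accessory subunit of the matrix arm, lay at 4.76, 4.46, 4.75 and 4.87 with MPA and at 4.46, 4.38, 4.44 and 4.34 in placebo. MPA replicate 2 lay just below the highest placebo array and the other 3 lay above, a difference of 0.31 ± 0.14 (unadjusted p = 0.0567, limma adjusted p = 0.818). It was 0.39 without MPA replicate 2 and -0.06 with normexp. With NET-A the difference was -0.05 ± 0.23. Core subunits, among which are those that hold the flavin and the iron-sulfur clusters, had small values. Ndufs1, Ndufs3, Ndufs7, Ndufs8, Ndufv1 and Ndufv2 changed by -0.17 to 0.17 with MPA and by -0.03 to 0.06 with NET-A, all with a limma adjusted p above 0.91. Ndufv1, the NADH-binding subunit, lay at 4.59, 5.94, 4.95 and 5.12 with NET-A and at 5.20, 5.17, 5.06 and 5.19 in placebo, where the 4 placebo arrays differed by 0.14. NET-A replicate 2 was above all of these and replicates 1 and 3 were below. Ndufa4, listed here by symbol and also known as a complex IV subunit, changed by -0.16 ± 0.36 with MPA and -0.12 ± 0.30 with NET-A. Ndufab1, the mitochondrial acyl carrier protein, had the highest complex I value with MPA, 0.36 ± 0.27 (n = 4 placebo and 3 MPA arrays), and its 3 kept probes ranged from -0.02 to 0.69. Ndufb6 had the lowest, -0.35 ± 0.44. With NET-A the lowest was Ndufv3, -0.25 ± 0.22, and the highest Ndufs8, 0.06 ± 0.33.

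Complex II, succinate dehydrogenase, is the entry point from the citric acid cycle. Sdha, the flavoprotein, lay at 2.11, 3.87, 2.53 and 2.82 with NET-A and at 2.92, 2.83, 2.55 and 3.06 in placebo. Sdhb, the iron-sulfur subunit, lay at 3.09, 4.74, 3.29 and 3.76 against 3.89, 3.61, 3.50 and 3.96. In both, replicate 2 was above and replicates 1 and 3 below every placebo array, and the mean differences were -0.0091 ± 0.35 and -0.02 ± 0.34. Sdhc, a membrane anchor, differed from them in order: it lay at 3.67, 4.35, 3.92 and 3.80 with NET-A and 3.56, 3.86, 3.56 and 3.65 in placebo, so no NET-A array was low, a difference of 0.28 ± 0.17 (limma adjusted p = 0.885). Sdhd, the other anchor, changed by 0.01 ± 0.29. With MPA the 4 genes changed by -0.30 to 0.07, with a limma adjusted p of 0.939 or more.

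Complex III passes electrons from ubiquinol to cytochrome c. Its 7 genes lay between -0.31 and -0.07 with NET-A and between -0.43 and 0.23 with MPA. Uqcrfs1, the Rieske iron-sulfur protein (probe at chromosome 13, 30632363 to 30632422, mm9), lay at 3.94, 5.47, 3.83 and 4.34 with NET-A and at 5.46, 4.27, 4.44 and 4.66 in placebo. Here placebo replicate 1 was as high as NET-A replicate 2, and the difference was -0.31 ± 0.40 (limma adjusted p = 0.985). With MPA it lay at 7.57, 4.57, 7.50 and 7.32 against 7.05, 6.77 and 6.63 in placebo (1 value dropped), and MPA replicate 2 alone was low. The difference was -0.08 ± 0.69 with that array and 0.64 without it. Uqcrc1, a core protein, changed by 0.0051 ± 0.21 with MPA and -0.15 ± 0.29 with NET-A. Uqcrb, which binds ubiquinone, had the lowest MPA value of the complex, -0.43 ± 0.36 (n = 4 placebo and 3 MPA arrays, limma adjusted p = 0.883).

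Complex V held both followers and exceptions. Atp5a1 and Atp5b, the catalytic head subunits alpha and beta, lay at 5.40, 7.05, 5.37 and 6.04 and at 6.59, 7.85, 6.64 and 7.08 with NET-A, against 5.98 to 6.36 and 6.95 to 7.31 in placebo. Replicate 2 was above and replicates 1 and 3 below every placebo array in both. The differences were -0.18 ± 0.35 and -0.10 ± 0.27 with NET-A and -0.18 ± 0.29 and -0.11 ± 0.24 with MPA. Atp5c1, the rotor stalk, changed by -0.04 ± 0.17 with NET-A and 0.01 ± 0.27 with MPA. The membrane ring subunit c is made from 3 genes, and these varied little over the NET-A arrays. Atp5g1 lay at 2.87, 2.76, 2.80 and 3.001 with NET-A and 2.84, 2.96, 2.89 and 2.88 in placebo, a range of 0.24 on the NET-A arrays that was the smallest of the 86 genes, and replicate 2 was its lowest array. Atp5g2 and Atp5g3 had ranges of 0.403 and 0.397. The 3 genes changed by -0.07 to 0.07 with NET-A and -0.28 to 0.11 with MPA. Atp5o, the stalk subunit that confers oligomycin sensitivity, had the lowest value of the complex with MPA, -0.48 ± 0.38 (limma adjusted p = 0.873).

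Of the 7 genes not counted as subunits, 4 of them assembly factors of complex I, 5 had the array order of the subunits in the NET-A group, and Atp5s and Atp5sl did not. The score of the 4 assembly factors was -0.18, 0.37, -0.19 and 0.10 on NET-A replicates 1 to 4 against -0.12 to 0.04 in placebo, so that replicate 2 was above and replicates 1 and 3 below every placebo array. Atp5s lay at 0.31, 0.03, -0.33 and -0.16 with NET-A and at -0.24, -0.67, 0.05 and -0.52 in placebo, a difference of 0.31 ± 0.20 (limma adjusted p = 0.906), and at -0.28 ± 0.29 with MPA. Cox4nb was at -0.23 ± 0.16 with NET-A, where its probes went opposite ways, and at 0.01 ± 0.16 with MPA. The assembly factor Ndufaf1 lay at 0.62, 1.31, 0.64 and 0.88 with NET-A against 0.59 to 0.81 in placebo, so replicate 2 was high and no array was low. The 4 assembly factors changed by 0.02 to 0.09 with MPA and by -0.06 to 0.20 with NET-A.

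Where a gene had several kept probes, these did not always move together. Their changes had opposite signs in 15 of 24 genes with MPA and 8 of 27 with NET-A, and among those the largest gap with MPA was in Atp5sl, with -0.05 for the brightest probe and 0.90 for the other. Sdha, Atp5f1, Atp5g2 and Ndufa1 had opposed probes in both comparisons. For Sdha the probes lay between -0.09 and 0.10 with MPA and between -0.09 and 0.02 with NET-A, all within the SE of the gene.

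The difference between the responses, MPA minus placebo less NET-A minus placebo, was tested over all 16 arrays. Of 85 genes kept in both experiments 0 were called by limma with Benjamini-Hochberg adjustment (0% of 15021 genes tested), and 0 had an unadjusted p under 0.05 (6.74% of all genes). The median difference was 0.08, with 57 genes above 0 (67.1%, against 51.2% of all genes), but with median scaling 34.1% of the 85 and 31.8% of all genes lay above 0, and with normexp 4.71% and 50.3%. The median less that of all genes was 0.07 in the reported values and with median scaling, and -0.43 with normexp. Cox8b differed by 0.71 ± 0.58, Cox7a1 by 0.52 ± 0.57 and Cox6a2 by -2.78 ± 1.79. Because the experiments lay on other slides and were read with other software versions, the levels of the 2 placebo groups cannot be told apart from these.

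Other genes of the pathway were followed in 5 lists, and no gene of them was called by limma in either comparison. Of the 26 assembly factors on the array, 4 of which also met the symbol rule, 15 of 25 kept genes lay above 0 with MPA (median 0.06) and 16 of 26 with NET-A (median 0.04). Atpaf1, a chaperone of the complex V head, was at 0.29 ± 0.11 with NET-A (unadjusted p = 0.0337), and Cox17, a copper carrier for complex IV, at 0.54 ± 0.25 with MPA (unadjusted p = 0.0601). The array order of the NET-A group was not limited to the respiratory chain: it was found in 16 of 18 citric acid cycle genes, 17 of 21 electron carriers and nucleotide transporters, 21 of 26 assembly factors, 6 of 18 biogenesis regulators and 2 of 4 mitochondrially encoded subunits. The citric acid cycle list had 6 of 18 genes above 0 with MPA and 7 of 18 with NET-A, where Suclg2, a succinyl-CoA ligase subunit, was at 0.42 ± 0.15 (unadjusted p = 0.0197). Electron carriers and nucleotide transporters had 7 of 20 and 10 of 21 genes above 0. Of the regulators of mitochondrial biogenesis, 8 of 16 lay above 0 with MPA and 9 of 18 with NET-A. Among them Ppargc1a, the coactivator PGC-1 alpha, lay at -1.63, 1.43, -0.94 and -0.99 with NET-A and at -0.91, -1.55, -0.90 and -1.09 in placebo, so that replicate 2 alone was high. Sirt3, a mitochondrial deacetylase, was at 0.41 ± 0.17 with MPA (unadjusted p = 0.0438). Esrrg, an estrogen-related receptor, had a value on only 1 MPA array, the dim replicate 2, and no change is given for it. The 16 regulators counted with MPA include Esrrg, among those below 0. The mitochondrially encoded subunits ND4, CYTB, COX2 and ATP6 lay above 0 in 4 of 4 cases with MPA (median 0.27), but without MPA replicate 2 in 1 of 4 (median -0.08), and in 0 of 4 with NET-A (median -0.16). Suclg2 with NET-A had the smallest adjusted p of the genes named from these lists, 0.706.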

How the data were processed

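Transcripts in 16 samples of mouse aorta were measured on one-colour Agilent arrays. Per the file headers, the deposited intensity of each spot is the background-subtracted signal from Feature Extraction (version 10.7.1.1 for the MPA experiment, 11.0.1.1 for NET-A), with no scaling of one array to another, and probe positions are in build mm9. A table of log2 values was deposited as well, and no label or header used here says how it was made. Its columns correlated by 0.985 to 1 with the arrays after quantile normalization within an experiment and centring of each probe, with slopes of 0.973 to 1.02 and medians of -0.0269 to 0.0157, so its scale, centring and direction are inferred.

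Outlier spots and control spots were left out, no spot was saturated, and the log2 of the processed signal was reduced by the 75th percentile of each array. A gene took its brightest probe over 16 arrays (the 88 genes had 128 probes); 9 of 1408 values of these genes were outliers. Accessions named 86 of the 88 in RefSeq, 5 with a newer symbol. The 4 arrays of a progestin were set against the 4 of its placebo with limma 3.58.1 in R 4.3.3 (two-sided, threshold 0.05 after Benjamini-Hochberg adjustment over all genes kept), without covariates. The fits were tested on simulated data, in which genes varied independently of each other. A log2 change of 1 was called in 48% of 100 changed genes for MPA, 42% for NET-A and 25% for the response difference. A log2 change of 2 was called in 85%, 74% and 74%. Same-numbered samples did not vary together (correlations of -0.331 to 0.328), so no pairing was used.

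Genes were named by rule: tissue forms, core and complex II subunits, the 5 with the smallest p each way, those past the threshold or with separate groups, those below background and those with opposed probes; of the other lists, those with the smallest p. Ppargc1a, Esrrg, Prdm16 and the MPA replicate 2 values were singled out after their values were seen. Members and lists were chosen with earlier results of these data known. Alternatives were another background correction, scaling, filter, probe summary, table and fit, and each array left out; normexp used the median spot signal on all arrays, and this choice, the left-out genes that are not subunits the counts of larger SDs and the mitochondrially encoded subunits without MPA replicate 2 were added after seeing the data. The values of 1 gene covered by the rule for named genes are not reported here. The number of arrays limits the precision.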

Additional observations from a re-analysis of the deposited data

Results flagged for a closer look

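In 233 sets of 4 replicates (the genes under the naming rule, less the 1 not reported, and each complex score in each group), 12 had 1 array whose distance to its nearest neighbour took more than 0.829 of the group's range, and chance alone gives about 5%. In the MPA placebo group, replicate 3 was low for Cox4nb at 0.90 (next array 1.37) and high for Cox8c at -2.28 (next -5.79), the one array on which Cox8c was well above background. There too, replicate 1 was low for Cox6b1 at 4.03 (next 4.41), and replicate 2 was high for Cox8a at 7.14 (next 6.83) and for Ndufb5 at 1.66 (next 1.45). In the MPA group replicate 2, the dimmest array, was low for Uqcrfs1 at 4.57 (next 7.32), for Ndufa7 at 6.85 (next 7.32) and for the complex IV score at -0.34 (next 0.09). In the NET-A placebo group replicate 1 was high for Cox6a1 at 8.61 (next 8.19), and replicate 2 was low for Cox7a2 at 5.30 (next 5.70), for Ndufa4 at 4.34 (next 4.88) and for Ndufa8 at 3.16 (next 3.88). No set of the NET-A group itself was among the 12. The rule takes a share of the group's own range, so it does not measure how widely the arrays were spread.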

How the results depend on the processing

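In every alternative run, 0 genes of the respiratory chain were called in the 3 comparisons. Of all genes, 1 was called for MPA with the slide as a block (smallest adjusted p 0.0328), and 1 for the response difference with the replicate block and 0 to 1 with an array left out (1 without NET-A replicate 1). With the replicate block 0 genes were called for either progestin (medians of the respiratory chain 0.0065 and -0.0627), and the numbers did not pair the samples: 2 of 8 arrays correlated best with their own number, both in the NET-A experiment.

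The MPA medians moved by more than the spread between arrays with normexp correction: -0.354 for all 85 genes and -0.354, -0.348, -0.5162, -0.2665 and -0.4192 for complexes I to V, while the median of all genes was 0.0056. Without MPA replicate 2 as well, they were -0.2937 for all 85 genes, -0.3078 for complex I, -0.2254 for complex IV and -0.3961 for complex V, and the cause was not tested. Under NET-A, normexp moved the median of all genes from -0.0261 to -0.1296 and that of the 86 to 0.0839. Within slide 1 complexes I and III stood at -0.1941 and -0.4386, and within slide 2 the medians were 0.2224 for all genes of the chain and 0.2628, 0.4225 and 0.2912 for complexes I, III and IV. Within slide 3 they were -0.5582 for all and -0.5491, -0.6217, -0.8495, -0.5893 and -0.3262 for complexes I to V, and within slide 5 0.2809 for all and 0.4948, 0.3094 and 0.3225 for complexes II to IV. Genes with a larger SD under MPA numbered 53 with normexp and with the series table, and 19 to 39 with an array left out.

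Leaving out 1 array gave medians for all genes of the chain of -0.0507 to 0.0939 with MPA and -0.277 to 0.0596 with NET-A. Without Cox4nb, Atp5s and Atp5sl they were 0.0101 and -0.0639. Of 1180 values of single genes under alternatives with MPA 100 moved by more than the replicate SD, and of 1210 with NET-A 81. Some alternatives, such as the filters, cannot change the value of a gene, and the SD was wide with NET-A, so these counts do not measure stability. With normexp the sign was opposite in 28 of 54 named genes with MPA and 31 of 55 with NET-A. With median scaling it was opposite in 12 and 21. For NET-A it was opposite in 41 within slide 5 and in 2 to 27 with 1 array left out.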

Other observations

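The mitochondrially encoded subunits were high on MPA replicate 2. ND4, CYTB, COX2 and ATP6 lay at 10.11, 10.19, 10.78 and 10.18 there, above all other 7 arrays of the experiment, whose highest values were 9.16, 9.24, 9.45 and 9.35. This was not limited to mitochondrially encoded genes. The bright marker genes Hba-a1, Hbb-b1, Fabp4 and Acta2 lay at 11.01, 10.98, 9.56 and 9.46 there. Their highest values on the other arrays were 10.17, 9.84, 9.07 and 8.98. Ucp1 and Lyz2, also bright, lay at 8.26 and 8.98 there and were not highest. On the same array 22 of 85 nuclear genes of the chain (25.9%, against 23.1% of all genes) lay below all other arrays and 6 (7.06%, against 14.6%) above. This array was chosen for description after its values were seen, and it was the dimmest of the experiment.

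Of the 88 genes, 67 were higher in the MPA placebo than in the NET-A placebo, with a median difference of 0.854. The 88 include Cox7b2 and Cox8c, which were at background on nearly all arrays. No such count over all genes is given beside it, so it is not read as a trait of these genes. The placebo groups lay on other slides and were read with other software versions, so group and processing cannot be told apart.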
